A study of Homo sapiens with 18 samples.

Results

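Disulfiram (DSF), a drug for alcohol dependence that blocks aldehyde dehydrogenases, was set directly against the fluoropyrimidine 5-fluorouracil (5-FU) in Huh7, an established hepatocellular carcinoma (HCC) cell line. The comparison took the 3 arrays of Huh7 DSF and the 3 arrays of Huh7 5-FU, 6 of the 18 arrays of the study, from the scanner's processed spot signal. The 3 Huh7 control arrays served only to show which drug moved a gene. Huh7 cells received 0.1 µM DSF, 1 µM 5-FU or neither drug for 48 hours, and cells that carry the epithelial adhesion molecule EpCAM (EpCAM+) were isolated by cell sorting. The labels name the sort after the treatment without stating that order outright. The paper speaks of EpCAM+ cells given either drug, which reads as a sort before treatment. In that case the cells on the arrays need not all still have carried EpCAM at harvest. The other 9 arrays hold the same 3 groups of a further line, Huh1. The study's methods name copper chloride together with DSF and describe triplicates from independent experiments. What the control cells received is not stated there, so effects of DSF and of copper cannot be told apart. The replicates belong to a single cell line, and p-values measure only the spread between these samples.

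The 2 drugs act on different parts of a cell. A breakdown product of DSF binds copper and zinc, and its copper complex is known to disturb the handling of ubiquitinated proteins. Metallothioneins, small cysteine-rich proteins that hold zinc and copper, are transcribed by the metal-sensing factor MTF1 from metal response elements. Heat shock genes are transcribed by HSF1 when unfolded proteins accumulate. 5-FU is converted into nucleotides that block thymidylate synthase and enter RNA and DNA, which disturbs DNA replication and the making of ribosomes. Hepatocytes secrete most plasma proteins, and many HCC lines still transcribe those genes.

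Levels are given on the log2 scale relative to the 75th percentile of the array, and each difference is DSF minus 5-FU unless another is named. Adjusted p values come from a single limma fit of all 18 arrays with Benjamini-Hochberg adjustment over 29760 probes, and a call means an adjusted p under 0.05. In Huh7, 18035 probes differed between the drugs, 60.6% of those tested. They comprised 10603 higher with DSF (35.6%) and 7432 higher with 5-FU (25%). Every count of list members below is to be read beside these shares. Over 2-fold, 2762 probes were higher with DSF (9.28%) and 2610 were higher with 5-FU (8.77%). With 1 probe a gene, 5446 of 15746 genes were higher with DSF and 4844 were higher with 5-FU. Against the control, DSF raised 27.4% of probes and lowered 19.4%, while 5-FU raised 27.4% and lowered 29.8%. Both of these comparisons use the same 3 control arrays.

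The split between the drugs depends on the scale. Measured against the spike-in RNA added to each sample, the log2 75th percentile was -2.21 ± 0.16 (SD, n = 3) with 5-FU and -3.37 ± 0.20 (SD, n = 3) with DSF. The difference was -1.16, with an exact two-sided permutation p of 0.1, the smallest that 3 against 3 arrays allow. Scaled to the spike-ins, 820 probes were higher with DSF and 24071 were higher with 5-FU, and every positive difference below 1.16 turns negative. Against the control the same scale adds 0.98 to every 5-FU value (exact permutation p = 0.1) and -0.18 to every DSF value (p = 0.3), so a fall with 5-FU of less than 0.98 turns positive there. The median difference over all tested probes was 0.12 on the main scale. Gene lists are therefore described relative to the median of all probes, a value that a constant shift of an array leaves as it is.

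Slides and other cell types were checked first. All Huh7 5-FU and control arrays and DSF replicate 1 shared a slide, while DSF replicates 2 and 3 lay on another slide scanned on another day. DSF replicates 2 and 3 differed by a median of 0.07 per probe, against 0.18 between each of them and replicate 1. With slide as a term in the fit, which leaves DSF replicate 1 against the 5-FU arrays, 13189 probes were called. Of 16 hepatocyte and hepatoblast markers, all were above background on every Huh7 array, as were 5 of 5 epithelial markers. The summed level of 6 fibroblast markers was 1.60 to 1.68 on the 5-FU arrays, -1.09 to -1.01 with DSF and -0.98 to -0.89 in the control, and it followed LUM, while COL3A1 was not above background on any Huh7 array. The summed blood markers were 1.52 to 2.16 with 5-FU against 0.92 to 1.04 with DSF, with HBB not above background. The endothelial sum was -1.23 to -1.01 against -1.80 to -1.64, with KDR and TEK not above background. The part of these markers in the differences below was not tested.

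Metallothioneins had the largest median difference of the 38 gene lists. All 11 members measured above background somewhere were higher with DSF, and 10 of them by over 2-fold. Of the 12 listed, MT4 did not pass the background filter and was not tested. Within Huh7, MT1M and MT1G were above background only with DSF, so their direction in these counts was fixed by the filter. Relative to all probes the list's median difference was 9.23. Against the control, 11 of 11 rose with DSF and 0 rose with 5-FU, where 8 fell.

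MT2A, the most widely expressed member, read 8.11, 8.72 and 8.79 on the DSF arrays, -0.59, -1.07 and -1.13 on the 5-FU arrays and -0.01, -0.02 and 0.00 in the control. The DSF arrays lay far above both other groups, with a difference of 9.47 ± 0.18 (SE, n = 3 arrays a group, adjusted p = 7.10e-14), or 707-fold. MT1X read 6.89, 7.11 and 7.10 with DSF, -2.15, -2.37 and -2.42 with 5-FU and -1.56, -1.56 and -1.55 in the control. Its difference was 9.35 ± 0.08 (SE, n = 3 arrays a group, adjusted p = 6.09e-18), and its 5-FU arrays also lay below the control, by -0.75. MT1E went from -3.10, -3.66 and -3.48 with 5-FU to 7.31, 7.36 and 7.35 with DSF, 1720-fold.

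MT1M and MT1G were not well above background on any 5-FU or control array. MT1M read 5.03, 5.54 and 5.53 with DSF, and the fold over 5-FU was at least 3110. MT1G read 4.92, 4.92 and 4.92 with DSF, at least 2280-fold over 5-FU. Such bounds set the bright group's mean against the lowest signal that counts as above background. The remaining members were MT1L at 10.40, MT1B at 9.15, MT1H at 8.71, MT1F at 8.35 and MT1A at 5.11. MT3, the member known from brain, differed by 0.50 (adjusted p = 0.044), and its DSF replicate 1 lay below every 5-FU array. Within the shared slide the MT3 difference was -0.19, so its call rests on DSF replicates 2 and 3. The MT1 genes are near-identical copies, so the share of each in a probe's signal is uncertain.

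The zinc transporters SLC30A2 and SLC30A1 were higher with DSF. SLC30A2 read -0.54, -0.54 and -0.51 with DSF against -5.34, -5.30 and -5.17 with 5-FU, with no overlap, and was not above background in the control. Its difference was 4.74 ± 0.19 (SE, n = 3 arrays a group, adjusted p = 1.72e-10). SLC30A1, the exporter at the cell surface, differed by 2.0 ± 0.11 (SE, n = 3 arrays a group, adjusted p = 4.73e-09), and it rose against the control under both drugs, by 2.74 with DSF and 0.74 with 5-FU. Of 25 copper and zinc transport genes, 9 were higher with DSF (36%, against 35.6% of all probes) and 10 with 5-FU (40%, against 25%). The latter included SLC30A10 at -1.29, SLC30A4 at -1.98 and the copper exporter ATP7B at -0.86. The factor MTF1 itself differed by 0.73 (adjusted p = 1.62e-05), which turned to -0.43 on the spike-in scale.

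Promoters of these genes are shown because metal response elements are the known route to them. RefSeq promoters on GRCh38.p14, the 250 bases before the start site, were searched on both strands for the element core TGCACNC or TGCGCNC. The core was in 24.8% of 35116 promoters, and 3 or more copies were in 1.58%. Of the 11 measured metallothioneins, 4 had a promoter in the table, and 4 of 4 held 3 or more copies. MT2A (chr16:56608334-56608583, plus strand) held 7, MT1X (chr16:56682220-56682469, plus strand) held 4 and SLC30A2 (chr1:26046119-26046368, minus strand) held 3. The SLC30A1 promoter held 1. Capitals mark the core matches, and each sequence runs from 5′ to 3′ and ends just before the start site.
MT2A: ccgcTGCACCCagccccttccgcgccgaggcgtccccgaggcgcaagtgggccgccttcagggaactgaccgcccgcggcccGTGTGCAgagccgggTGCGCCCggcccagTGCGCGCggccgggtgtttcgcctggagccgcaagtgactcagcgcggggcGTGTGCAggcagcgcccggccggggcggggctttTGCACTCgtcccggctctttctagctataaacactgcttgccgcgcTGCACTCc
MT1X: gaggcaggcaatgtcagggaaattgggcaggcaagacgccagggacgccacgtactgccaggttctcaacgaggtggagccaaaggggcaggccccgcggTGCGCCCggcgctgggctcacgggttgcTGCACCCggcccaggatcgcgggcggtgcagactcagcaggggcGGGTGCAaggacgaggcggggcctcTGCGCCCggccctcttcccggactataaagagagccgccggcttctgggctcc
SLC30A2: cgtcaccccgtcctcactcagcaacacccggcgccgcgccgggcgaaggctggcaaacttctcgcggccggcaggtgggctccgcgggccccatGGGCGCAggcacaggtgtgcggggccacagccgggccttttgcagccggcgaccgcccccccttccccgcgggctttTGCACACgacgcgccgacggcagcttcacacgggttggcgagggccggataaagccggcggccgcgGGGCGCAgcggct

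**Figure D1:**
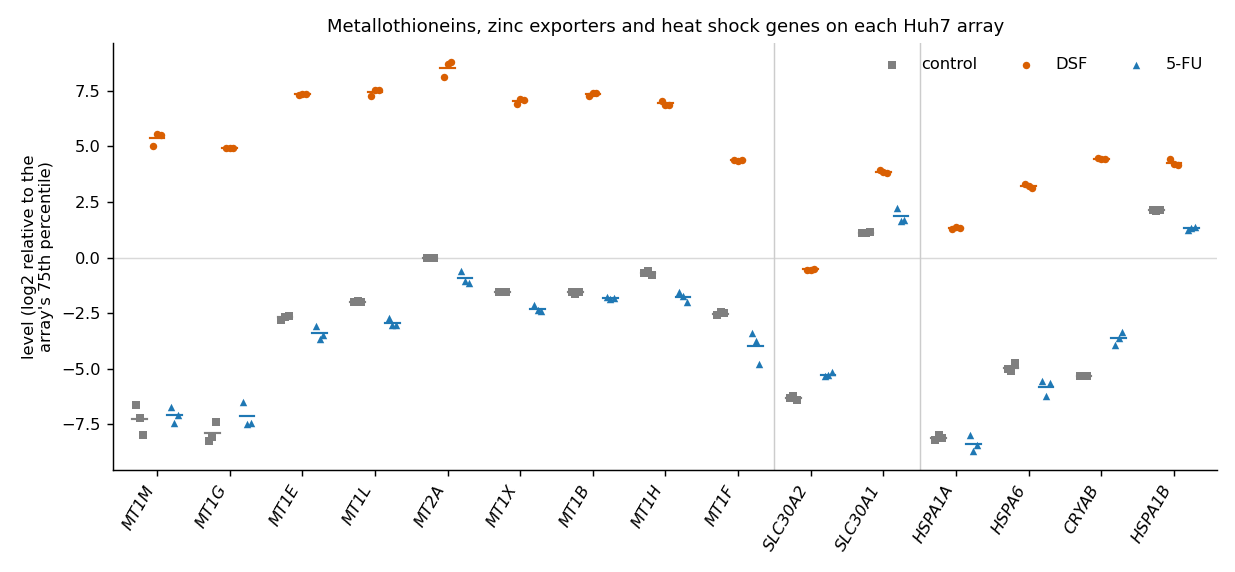
Level on each Huh7 array (log2 relative to the array's 75th percentile) of 9 metallothioneins, 2 zinc exporters and 4 heat shock genes, with a point for each of 3 control, 3 DSF and 3 5-FU arrays and a bar for the mean. Every DSF point lies above every 5-FU and control point of its gene, from MT2A near the top of the scale to HSPA1A, whose 5-FU and control arrays lie below -7.

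Heat shock genes were higher with DSF as a group. Of 28 chaperones and co-chaperones, 22 were higher with DSF and 0 with 5-FU, with a median relative to all probes of 0.54. Against the control, DSF raised 26 of 28, while 5-FU raised 13 and lowered 11. HSPA1A, an inducible HSP70, read 1.29, 1.36 and 1.32 with DSF and was not well above background on any 5-FU or control array, a difference of at least 188-fold. HSPA6, an HSP70 made under strong stress, read 3.29, 3.24 and 3.15 with DSF, -5.57, -6.22 and -5.66 with 5-FU and -5.03, -5.09 and -4.76 in the control. Its difference was 9.04 ± 0.14 (SE, n = 3 arrays a group, adjusted p = 4.27e-15), with 1 of the 3 5-FU arrays above background.

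The small heat shock protein CRYAB rose under both drugs but by very different amounts. It read 4.47, 4.41 and 4.42 with DSF, -3.95, -3.61 and -3.36 with 5-FU and -5.34, -5.35 and -5.31 in the control. DSF exceeded 5-FU by 8.07 ± 0.12 (SE, n = 3 arrays a group, adjusted p = 2.98e-15), 269-fold, and the differences from control were 9.76 with DSF and 1.69 with 5-FU. HSPA1B, which is nearly identical to HSPA1A in its coding part, was above background on all arrays and differed by 2.95 ± 0.09 (SE, n = 3 arrays a group, adjusted p = 1.74e-11). HSPH1, a chaperone that helps HSP70, differed by 1.13. Signals of the HSPA1A and HSPA1B probes cannot be assigned to either gene with certainty.

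HSF1 binds heat shock elements, so the promoters of the HSP70 genes were searched for the paired unit GAANNTTC or TTCNNGAA. The unit was in 11.6% of all promoters, and 3 or more copies were in 0.145%. Of the 28 chaperones, 25 had a promoter in the table, 16 held the unit and 6 held 3 or more copies. HSPA6 (chr1:161524290-161524539, plus strand) held 3, 2 of them overlapping, and HSPA1A (chr6:31815293-31815542, plus strand) held 1. Capitals mark the matches.
HSPA6: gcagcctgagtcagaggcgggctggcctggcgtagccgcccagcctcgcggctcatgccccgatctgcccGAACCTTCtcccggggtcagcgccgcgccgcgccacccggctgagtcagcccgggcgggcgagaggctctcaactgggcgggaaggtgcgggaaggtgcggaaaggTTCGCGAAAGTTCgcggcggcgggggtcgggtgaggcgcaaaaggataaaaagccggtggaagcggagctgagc
HSPA1A: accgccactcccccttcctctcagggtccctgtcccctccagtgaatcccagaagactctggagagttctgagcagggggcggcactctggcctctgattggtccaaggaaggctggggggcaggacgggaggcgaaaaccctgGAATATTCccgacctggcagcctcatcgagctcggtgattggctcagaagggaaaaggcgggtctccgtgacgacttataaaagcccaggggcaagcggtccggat

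Protein turnover genes moved by less. The proteasome, the complex that degrades ubiquitinated proteins, had 34 of 37 subunits and assembly factors higher with DSF and 1 higher with 5-FU, PSMG3 at -0.51. Its median relative to all probes was 0.38, and no member reached 2-fold. Examples were PSMB7 at 0.98 and PSMA3 at 0.97. DSF raised 29 of 37 against the control and 5-FU raised 11 and lowered 14. PSMA3 read 0.02 with DSF against the control (adjusted p = 0.84) and fell with 5-FU (-0.94). VCP, the segregase that pulls ubiquitinated proteins from complexes, differed by 1.02, in a list where 16 of 28 were higher with DSF and 4 with 5-FU. On the spike-in scale PSMB7, PSMA3 and VCP turned to -0.18, -0.19 and -0.14.

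Of 24 endoplasmic reticulum (ER) stress genes and chaperones, 19 were higher with DSF and 0 with 5-FU, with a median relative to all probes of 0.50. HSP90B1, the main ER form of HSP90, read 7.45, 7.60 and 7.60 with DSF against 5.92, 6.27 and 6.17 with 5-FU, a difference of 1.43 ± 0.08 (SE, n = 3 arrays a group, adjusted p = 2.85e-09). ATF6, an ER stress sensor, differed by 1.39, and HERPUD1, a part of the ER degradation machinery, by 1.33. Each of these 3 genes rose with DSF and fell with 5-FU against the control, with HSP90B1 at 0.41 with DSF and -1.02 with 5-FU.

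NRF2 targets, which make glutathione and reduce reactive aldehydes and quinones, were 21 of 27 higher with DSF and 4 higher with 5-FU, with a median relative to all probes of 0.82. DSF raised 17 of 27 against the control, and 5-FU lowered 18. The aldo-keto reductase AKR1C3 read 4.0, 4.60 and 4.57 with DSF, 0.30, 1.32 and 1.61 with 5-FU and 2.66, 2.53 and 2.59 in the control, so the control lay between the drugs. Its difference was 3.31 ± 0.25 (SE, n = 3 arrays a group, adjusted p = 5.78e-08). AKR1C1 differed by 2.87 and AKR1B10 by 2.10, in the same arrangement around the control. Members of the AKR1C family are near-identical, and the 2 extremes over the probes of AKR1C4 were -1.43 and 3.27.

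SLC7A11, the cystine importer, had another arrangement. It read 2.44, 2.41 and 2.37 with DSF, -0.34, 0.16 and 0.35 with 5-FU and 2.97, 3.01 and 2.98 in the control, and its difference of 2.35 ± 0.16 (SE, n = 3 arrays a group, adjusted p = 2.58e-08) came from a fall with 5-FU of -2.93 and a smaller fall with DSF of -0.58. HMOX1, which breaks down heme, differed by 1.23, rising with DSF by 1.51 and reading 0.27 with 5-FU (adjusted p = 0.155). The glutathione synthesis enzyme GCLC differed by 1.58 and the thioredoxin reductase TXNRD1 by 1.76. GCLM, the partner of GCLC and a gene the study names, read 3.15, 3.61 and 3.52 with DSF and 3.19, 3.09 and 3.37 with 5-FU, overlapping, with an adjusted p of 0.116. EPHX1, an epoxide hydrolase, was higher with 5-FU (-1.25). Of 22 antioxidant enzymes, 9 were higher with DSF and 7 with 5-FU, with TXNRD2 at 1.37, GPX2 at 0.76 and SOD3 at -2.08.

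ATF4 targets, the amino acid and stress response genes, were 27 of 32 higher with DSF and 2 with 5-FU, with a median relative to all probes of 0.73. Against the control on the 75th percentile scale, 24 fell and 4 rose with 5-FU (a median of -0.86 relative to all probes). With DSF, 13 fell and 8 rose. The list's median of 5-FU minus control was -0.91, and the spike-in scale, which adds 0.98 to every 5-FU value, turns it positive. ASNS, asparagine synthetase, read 6.51, 6.43 and 6.44 with DSF, 3.44, 4.20 and 4.17 with 5-FU and 6.80, 6.79 and 6.89 in the control. The 5-FU arrays stood apart from the other two groups, with a difference of 2.52 ± 0.22 (SE, n = 3 arrays a group, adjusted p = 3.31e-07) and a DSF value of -0.36 against control that did not pass the test (adjusted p = 0.198). CTH, which makes cysteine, differed by 2.12, the secreted factor STC2 by 2.09 and the mitochondrial folate enzyme ALDH1L2 by 2.56. PSPH, the last enzyme of serine synthesis, was 1 of the 2 higher with 5-FU, at -0.49.

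**Figure D2:**
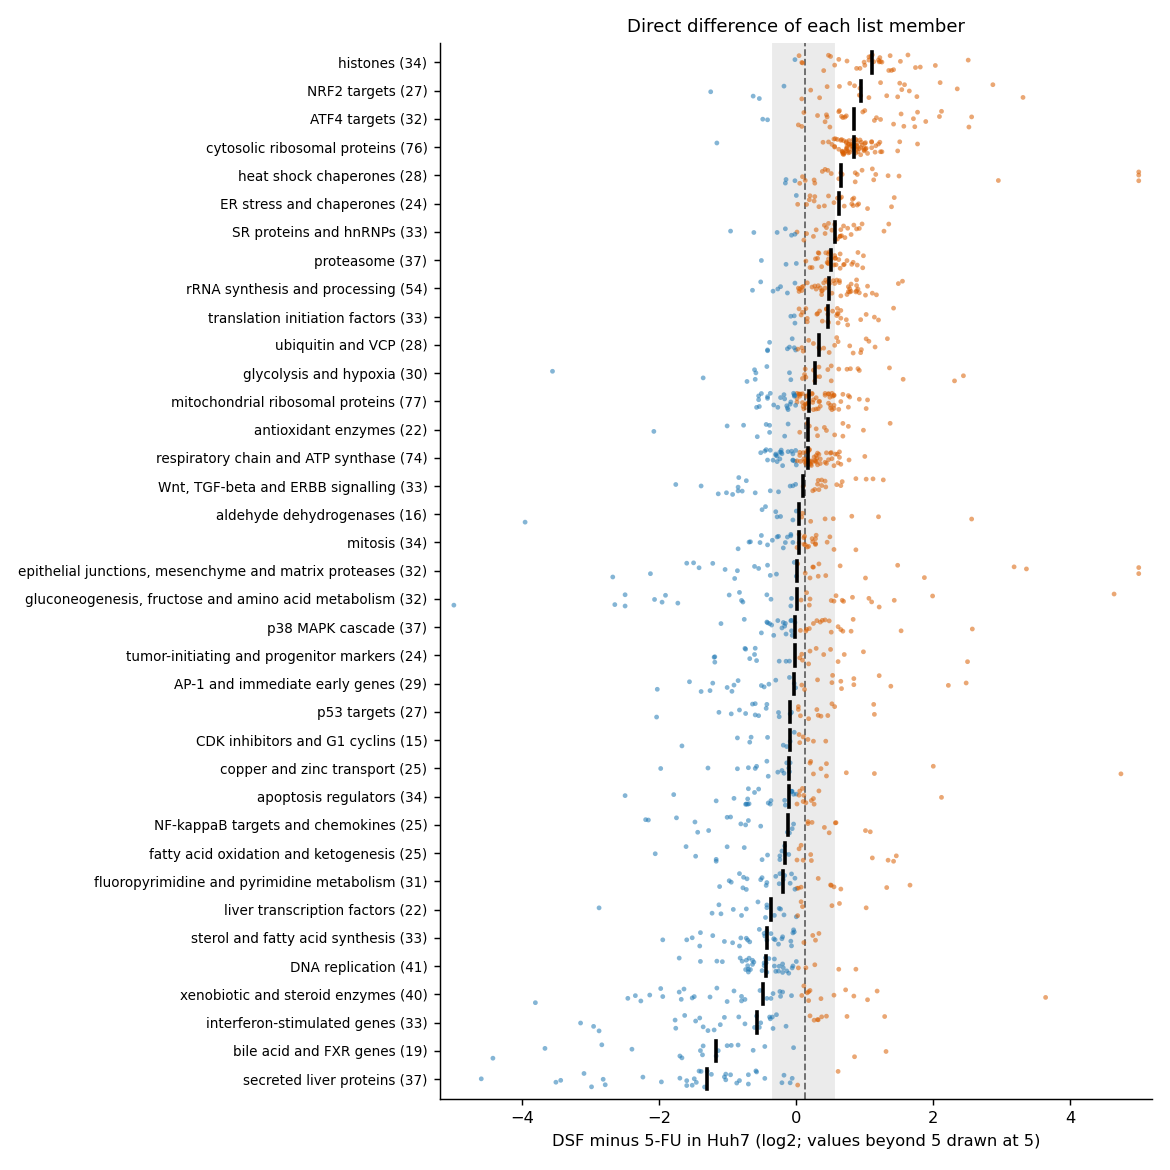
DSF minus 5-FU difference (log2) of every measured member of 37 gene lists, with the number of members in brackets, a black bar at each list's median, a grey band between the quartiles of all tested probes (-0.34 and 0.55) and a dashed line at their median of 0.12. Metallothioneins lie off this scale; histones lie highest and secreted liver proteins lowest.

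The plot of list members spreads from histones to secreted liver proteins. Of 34 measured histone genes, 30 were higher with DSF and 0 with 5-FU, 21 by over 2-fold, with a median relative to all probes of 0.98. On the 75th percentile scale 5-FU differed more from the control, with 30 falling, 1 rising and a median relative to all probes of -0.97. DSF raised 10 and lowered 4. The list's median of 5-FU minus control was -1.02, close to the 0.98 that the spike-in scale adds to every 5-FU value. H1-3, a linker histone, read 2.07, 2.18 and 2.17 with DSF, -0.14, -0.56 and -0.39 with 5-FU and 2.21, 2.20 and 2.26 in the control. Its difference was 2.51 ± 0.09 (SE, n = 3 arrays a group, adjusted p = 5.12e-11), and DSF differed from control by -0.08 (adjusted p = 0.451). H1-2 differed by 2.03. Histone genes share sequence, so probes of single members are uncertain.

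Of 76 cytosolic ribosomal proteins, 75 were higher with DSF, with a median difference of 0.84, or 0.71 relative to all probes, and under quantile normalization, which sets the brightest signals equal across arrays, 0.11. The list's median level was 7.93, 8.0 and 8.0 on the DSF arrays, 7.10, 7.15 and 7.02 on the 5-FU arrays and 7.95, 7.90 and 7.95 in the control. DSF and control arrays lay side by side, and the 5-FU arrays lay lower. Against the control, 74 of 76 fell with 5-FU, by a median of -0.71 relative to all probes, while 13 rose and 2 fell with DSF. The list's median of 5-FU minus control was -0.76, which turns positive on the spike-in scale. The 2976 brightest of all tested probes had a median difference of 0.24.

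RPL3 read 7.77, 7.96 and 7.99 with DSF, 6.23, 6.16 and 6.02 with 5-FU and 8.06, 8.06 and 8.03 in the control, with a difference of 1.77 ± 0.08 (SE, n = 3 arrays a group, adjusted p = 4.04e-10). RPL12 differed by 1.48. The exception RPL27A, at -1.16, was read by a dim probe, with levels between -4.59 and -3.12 on the 6 drug arrays. Ribosomal protein genes have many processed copies, so their probes are uncertain.

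**Figure D3:**
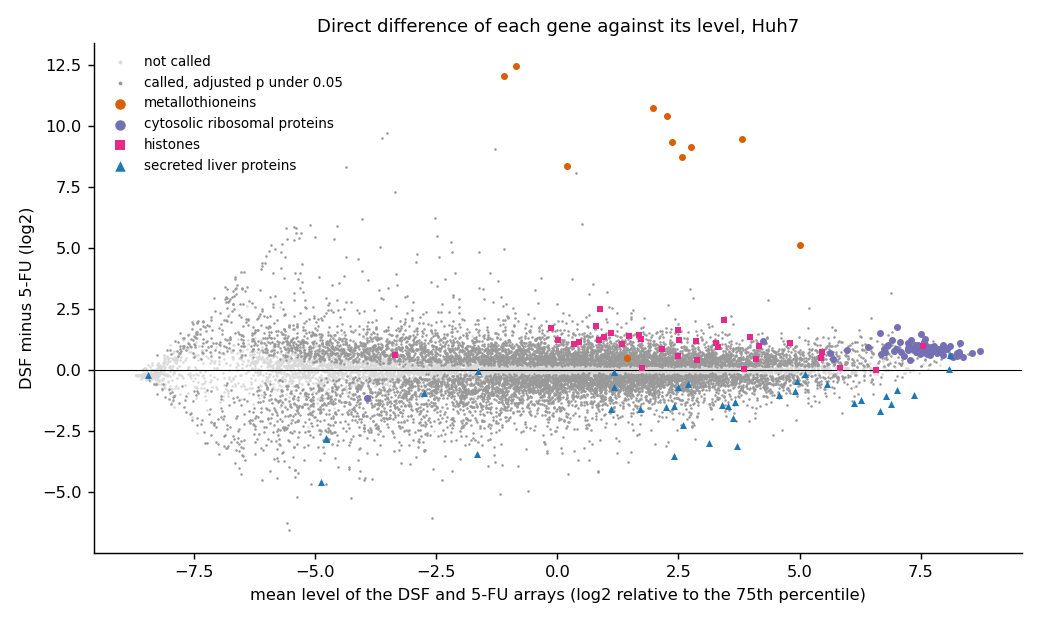
DSF minus 5-FU difference (log2) of every tested gene against its mean level on the DSF and 5-FU arrays (log2 relative to the 75th percentile), with 4 lists coloured. Ribosomal proteins form a tight group at the bright end with differences up to 1.77, apart from the dim RPL27A, while metallothioneins reach the top of the plot, where MT1M and MT1G stand at fitted values against 5-FU signals not above background, and secreted liver proteins mostly below 0.

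Other parts of RNA and protein synthesis lay on the same side. Of 54 genes of rRNA synthesis and processing, 40 were higher with DSF and 4 with 5-FU (0.36 relative to all probes), and 46 rose with DSF against the control. TAF1D, a subunit of the RNA polymerase I selectivity factor, differed by 1.55, and the nucleolar chaperone NPM1 by 1.17. Of 33 translation initiation factors, 24 were higher with DSF and 0 with 5-FU (0.33 relative to all probes, 0.11 under quantile normalization), led by EIF3F at 1.42. Of 33 SR proteins and hnRNPs, which process mRNA, 24 were higher with DSF and 4 with 5-FU, with HNRNPA1 at 1.35. MYC, the factor that drives ribosome making, read 4.93, 4.58 and 4.59 with DSF, 2.68, 2.12 and 2.64 with 5-FU and 4.36, 4.41 and 4.42 in the control, a difference of 2.22 ± 0.13 (SE, n = 3 arrays a group, adjusted p = 5.07e-09). Mitochondrial ribosomal proteins (39 of 77 higher with DSF, 12 with 5-FU) and the respiratory chain (39 of 74 against 16) had medians of 0.06 and 0.05 relative to all probes, which turned to -0.03 and -0.27 under quantile normalization.

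**Figure D4:**
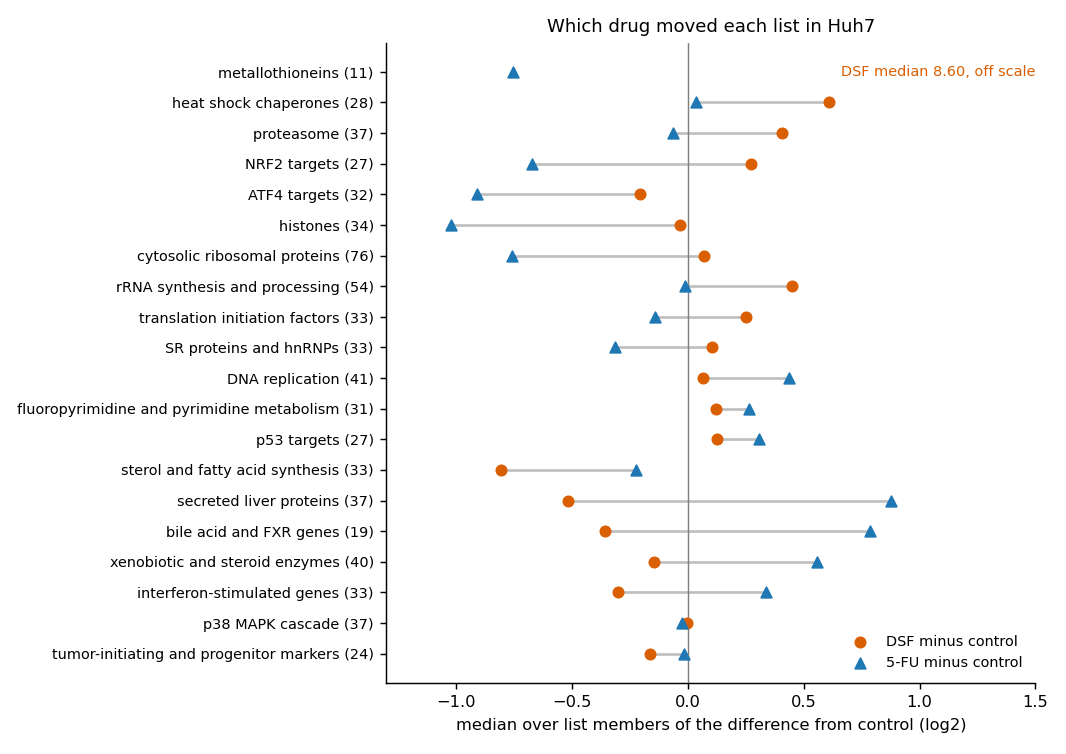
Median over list members of DSF minus control (circles) and of 5-FU minus control (triangles), in log2 on the 75th percentile scale, for 20 lists in Huh7; both use the same 3 control arrays. Histones, ATF4 targets and ribosomal proteins show the triangle far left of 0, sterol synthesis shows the circle there, and the metallothionein circle, at 8.60, is off scale.

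The plot of each drug's list medians sets the replication genes on the other side. Of 41 DNA replication genes, 30 were higher with 5-FU and 3 with DSF, with a median relative to all probes of -0.57. Against the control, 5-FU raised 31 and lowered 3, and DSF raised 11 and lowered 7. CCNE2, a cyclin of entry into S phase, read -0.97, -1.15 and -1.07 with DSF, 0.51, 0.76 and 0.69 with 5-FU and -1.56, -1.53 and -1.62 in the control. It rose under both drugs, by 0.51 with DSF and 2.23 with 5-FU, and the direct difference was -1.71 ± 0.10 (SE, n = 3 arrays a group, adjusted p = 4.33e-09). CDC6 and CDT1, which load the replicative helicase, differed by -1.40 and -1.16. POLA1, the catalytic subunit of the polymerase that starts DNA strands, went the other way at 0.87, which turned to -0.29 on the spike-in scale. Mitosis genes were split evenly, 11 higher with each drug of 34. That is 32.4% each way, against 35.6% of all probes toward DSF and 25% toward 5-FU.

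Genes of pyrimidine and fluoropyrimidine metabolism were 16 of 31 higher with 5-FU and 7 with DSF, with a median relative to all probes of -0.32. TYMS, the thymidylate synthase that 5-FU blocks, read 4.77, 4.54 and 4.56 with DSF, 5.16, 5.17 and 5.05 with 5-FU and 4.55, 4.52 and 4.57 in the control, a difference of -0.50 ± 0.07 (SE, n = 3 arrays a group, adjusted p = 2.03e-05). The thymidine kinase TK1 differed by -0.98 and the CTP synthase CTPS1 by -0.95. DHODH, which makes orotate, was higher with DSF and read 1.76, 1.71 and 1.73 with DSF against 0.03, 0.01 and 0.17 with 5-FU, with the control at 1.92, 1.90 and 1.88. The thymidine phosphorylase TYMP read 6.34, 7.47 and 7.52 with DSF against 5.69, 5.97 and 5.70 with 5-FU, a difference of 1.32 that was 0.55 within the shared slide.

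Of 27 p53 targets, 13 were higher with 5-FU and 6 with DSF, with a median relative to all probes of -0.22. CDKN1A, the CDK inhibitor p21, read -3.17, -3.17 and -3.19 with DSF, -1.16, -0.93 and -1.32 with 5-FU and -2.42, -2.47 and -2.33 in the control. The drugs moved it in opposite directions, by -0.77 with DSF and 1.27 with 5-FU, with a direct difference of -2.04 ± 0.11 (SE, n = 3 arrays a group, adjusted p = 2.23e-09). BBC3, which encodes PUMA, was higher with DSF at 1.14, through a fall with 5-FU of -1.20, and turned to -0.02 on the spike-in scale. CDK2, which the study names, was lower with DSF by -1.67 and moved in opposite directions against the control (-0.75 with DSF and 0.91 with 5-FU). CDKN2B rose under both drugs, by 2.08 with DSF and 2.94 with 5-FU. BIK, a promoter of apoptosis, was higher with 5-FU (-1.79), as was the death ligand TNFSF10 (-2.50). Of 34 apoptosis regulators, 15 were higher with 5-FU (44.1%, against 25% of all probes) and 5 with DSF (14.7%, against 35.6%).

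Secreted liver proteins were the list most shifted toward 5-FU. Of 37 measured members, 31 were higher with 5-FU and 1 with DSF, 23 of them by over 2-fold, with a median relative to all probes of -1.42. The drugs moved opposite shares, since 5-FU raised 27 and lowered 5 against the control (0.93 relative to all probes), and DSF raised 2 and lowered 24 (-0.60). In these bulk samples, a larger share of cells that make a protein and more RNA per cell cannot be told apart.

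AHSG, the plasma protein fetuin-A, read 0.83, 0.55 and 0.61 with DSF, 3.44, 4.41 and 4.67 with 5-FU and 3.28, 3.25 and 3.22 in the control. Every DSF array lay below the control and every 5-FU array above it, with a direct difference of -3.51 ± 0.24 (SE, n = 3 arrays a group, adjusted p = 2.88e-08). SAA4, a constitutive serum amyloid, read -3.01, -3.04 and -3.19 with DSF and 2.16, 1.86 and 1.63 with 5-FU around a control of -0.72, -0.75 and -0.67, a difference of -4.96 ± 0.23 (SE, n = 3 arrays a group, adjusted p = 5.98e-10). HPX, which binds heme, differed by -3.44, the apolipoprotein APOM by -3.10 and the transthyretin gene TTR by -1.39. ITIH3 was not well above background on any DSF array and was at least 14.8-fold lower than with 5-FU, and SERPINA11 was at least 13.2-fold lower.

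Albumin and alpha-fetoprotein did not follow this list. ALB read 8.06, 8.11 and 8.11 with DSF and 8.09, 8.24 and 7.88 with 5-FU, with a difference of 0.02 (adjusted p = 0.809), which became -0.63 and a call under quantile normalization. AFP, the single member higher with DSF, read 8.07, 8.59 and 8.57 with DSF and 7.74, 7.87 and 7.79 with 5-FU. Its difference of 0.61 (adjusted p = 0.00257) was -0.08 under quantile normalization, -0.55 on the spike-in scale and 0.27 with slide as a term. Of 22 liver transcription factors, 13 were higher with 5-FU and 3 with DSF. The xenobiotic receptor NR1I2 differed by -2.88, reading -0.81, -0.46 and -0.71 with 5-FU against -3.43, -3.57 and -3.61 with DSF and -2.92, -2.91 and -2.81 in the control.

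Bile acid genes were next. FXR is the receptor that senses bile acids and induces NR0B2 and the exporters SLC51A and SLC51B. Of 19 measured members of the list, 16 were higher with 5-FU and 1 with DSF, with a median relative to all probes of -1.29. Against the control 5-FU raised 11 and lowered 2, and DSF raised 3 and lowered 9. NR0B2 read -1.11, -1.21 and -1.22 with DSF, 1.76, 2.61 and 3.12 with 5-FU and -1.48, -1.61 and -1.44 in the control. Its 5-FU arrays stood apart from both other groups, with a direct difference of -3.67 ± 0.36 (SE, n = 3 arrays a group, adjusted p = 9.64e-07) and 0.33 with DSF and 4.0 with 5-FU against control, of which the DSF value did not pass the test (adjusted p = 0.482). SLC51B differed by -2.84. SLC51A differed by -2.40 with both drugs below the control, by -4.04 with DSF and -1.64 with 5-FU. AKR1D1, a reductase of bile acid synthesis, was at least 7.44-fold lower with DSF. SLC27A5, which joins bile acids to coenzyme A, was higher with DSF at 1.31, through a fall with 5-FU of -1.96.

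**Figure D5:**
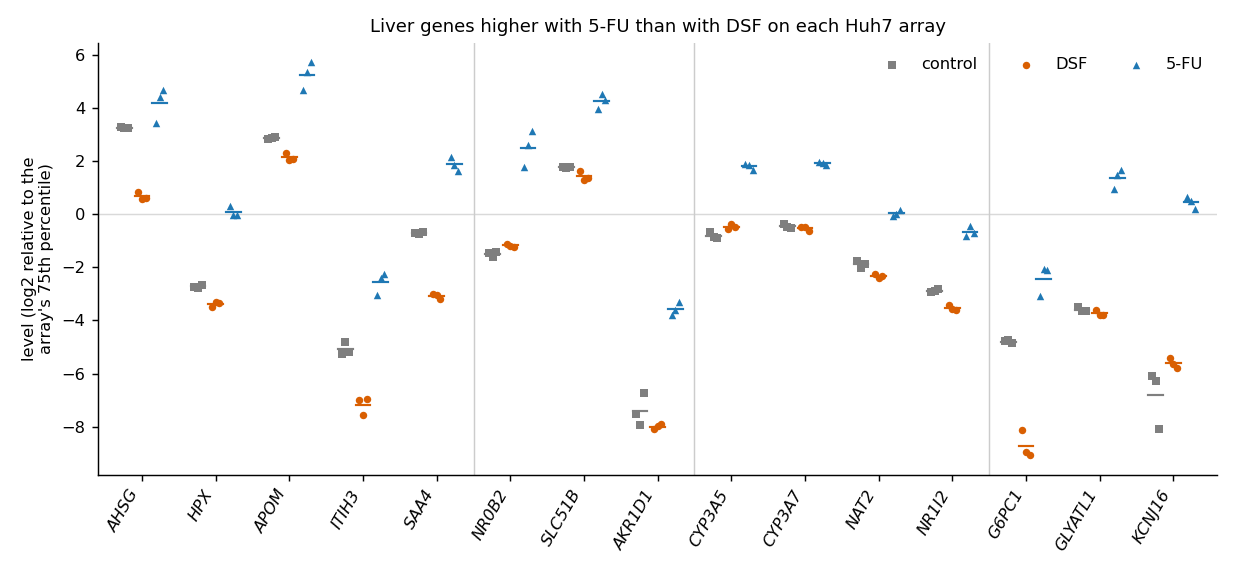
Level on each Huh7 array (log2 relative to the array's 75th percentile) of 5 secreted liver proteins, 3 bile acid genes, 4 genes of xenobiotic handling and 3 genes among the largest differences, with a point for each of 3 control, 3 DSF and 3 5-FU arrays and a bar for the mean. The 5-FU points lie above the DSF points for every gene shown, with control points either beside the DSF points, as for GLYATL1, or between the drugs, as for SAA4.

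Drug and steroid metabolism showed the same side. Of 40 xenobiotic and steroid enzymes, 22 were higher with 5-FU and 10 with DSF, with a median relative to all probes of -0.61. CYP3A7, the fetal CYP3A enzyme, and CYP3A5 differed by -2.46 and -2.27, and the N-acetyltransferase NAT2 by -2.35. FMO1, a flavin monooxygenase outside that list, differed by -4.52. HSD17B8, a steroid dehydrogenase, was higher with DSF and read 0.62, 0.59 and 0.60 with DSF, -3.17, -2.68 and -3.26 with 5-FU and 1.42, 1.43 and 1.47 in the control, a difference of 3.64 ± 0.24 (SE, n = 3 arrays a group, adjusted p = 1.88e-08).

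Metabolic genes went both ways. Of 32 genes of gluconeogenesis, fructose and amino acid metabolism, 12 were higher with 5-FU and 9 with DSF. G6PC1, the glucose-6-phosphatase that releases glucose, read -3.09, -2.08 and -2.12 with 5-FU and -4.79, -4.75 and -4.85 in the control and was not well above background on any DSF array, at least 16.3-fold lower. The cytosolic PCK1 and the mitochondrial PCK2, which make phosphoenolpyruvate, differed in opposite directions, by -2.50 and 1.99. PCK1 fell under both drugs (-4.42 with DSF and -1.91 with 5-FU), as did PCK2 (-1.06 with DSF and -3.06 with 5-FU). HPD, an enzyme of tyrosine breakdown, read -0.12, -0.22 and -0.06 with DSF against -4.42, -5.12 and -4.78 with 5-FU, a difference of 4.64 ± 0.51 (SE, n = 3 arrays a group, adjusted p = 2.40e-06). Of 30 glycolysis and hypoxia genes, 17 were higher with DSF and 6 with 5-FU (0.16 relative to all probes). GAPDH differed by 0.62, which was 0.00 under quantile normalization and -0.53 on the spike-in scale.

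Sterol and fatty acid synthesis fell under DSF. Against the control, DSF lowered 30 of 33 genes and raised 0, with a median relative to all probes of -0.89, and 5-FU lowered 18 and raised 5, with a median relative to all probes of -0.18. The spike-in scale, which adds 0.98 to every 5-FU value, turns the 5-FU median positive. In the direct comparison 24 were higher with 5-FU and 3 with DSF, with a median relative to all probes of -0.56. SC5D, a late enzyme of cholesterol synthesis, read -3.02, -2.79 and -2.77 with DSF, -0.86, -0.96 and -0.92 with 5-FU and -1.05, -1.24 and -1.29 in the control, a difference of -1.95 ± 0.11 (SE, n = 3 arrays a group, adjusted p = 3.35e-09). STARD4, a sterol carrier, differed by -1.60 and the desaturase FADS2 by -1.52. SCD was among the 3 higher with DSF, at 0.24 (adjusted p = 0.00747), and turned to -0.92 on the spike-in scale.

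Interferon-stimulated genes were higher with 5-FU in 19 of 33 cases and higher with DSF in 3, with a median relative to all probes of -0.70. Of the 33, 2 were not above background on all 3 arrays of either drug, and 1 of these, XAF1, was among the 19. IRF7, the factor that amplifies interferon, read -3.31, -3.23 and -2.83 with DSF, 0.09, 0.07 and -0.63 with 5-FU and -1.12, -1.13 and -1.32 in the control, with the drugs on either side of the control and a direct difference of -2.96 ± 0.16 (SE, n = 3 arrays a group, adjusted p = 3.41e-09). IFI6 differed by -2.88 and ISG15, a ubiquitin-like modifier, by -1.77. IFIT2 was higher with DSF at 1.29. Among NF-kappaB targets and chemokines, 11 of 25 were higher with 5-FU and 4 with DSF. CCL15 read 0.44, 0.44 and 0.46 with DSF, 2.62, 2.57 and 2.74 with 5-FU and 0.43, 0.36 and 0.42 in the control, while CXCL3 rose under both drugs and more with DSF (1.68 with DSF and 0.60 with 5-FU).

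Of 32 genes of epithelial junctions, mesenchyme and matrix proteases, 12 were higher with each drug. That is 37.5% each way, against 35.6% of all probes toward DSF and 25% toward 5-FU. SNAI2, called higher with DSF, and CLDN3, called higher with 5-FU, were not above background on all 3 arrays of either drug. MMP1, an interstitial collagenase, read 0.23, 0.32 and 0.21 with DSF, -6.23, -4.23 and -5.21 with 5-FU and was not above background in the control. Its difference was 5.48 ± 0.49 (SE, n = 3 arrays a group, adjusted p = 3.68e-07), with 2 of 3 5-FU arrays above background. MMP10, a stromelysin, read 0.06, 0.08 and 0.06 with DSF and -4.82, -2.77 and -2.29 with 5-FU, a difference of 3.36 ± 0.43 (SE, n = 3 arrays a group, adjusted p = 1.04e-05), and rose under both drugs from a control that was not above background, by at least 66.5-fold with DSF and at least 6.47-fold with 5-FU. MMP3 was at least 13.2-fold higher with DSF than with 5-FU. The matrix protein osteopontin, SPP1, read 2.76, 2.56 and 2.51 with DSF against -0.98, -0.77 and 0.05 with 5-FU. CDH1, the epithelial cadherin, was lower with DSF (-1.20).

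AP-1 and immediate early genes, known regulators of these proteases, were 9 of 29 higher with DSF and 11 with 5-FU. NR4A1, among the 9, was not above background on all 3 arrays of either drug. FOSL1 was higher with DSF at 2.48 and JUN was higher with 5-FU at -1.56, reading 2.31, 2.51 and 2.48 with 5-FU against 0.90, 0.87 and 0.85 with DSF and 0.99, 0.98 and 1.08 in the control. The AP-1 element TGANTCA was in 6.57% of all promoters and in 7 of the 24 promoters available for the junction and protease list, MMP10 among them with 1 match.

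The p38 MAPK cascade, which the study follows, did not shift as a list at the RNA level. The study's own evidence was phosphorylated p38, the effect of a p38 inhibitor and a p38 gene set enriched with DSF but not with 5-FU. RNA levels of the cascade do not measure phosphorylation of p38. Of 37 members, 14 were higher with DSF and 6 with 5-FU, with a median relative to all probes of -0.14 that was 0.05 within the shared slide. MAPK14, the main p38 kinase, read -0.40, -0.33 and -0.36 with DSF, -0.47, -0.70 and -0.67 with 5-FU and 0.05, 0.03 and 0.06 in the control. Both drugs lay below the control (-0.41 with DSF and -0.66 with 5-FU), and the direct difference was 0.25 ± 0.07 (SE, n = 3 arrays a group, adjusted p = 0.00527), not called with slide as a term (0.21) and turned to -0.91 on the spike-in scale. GADD45G, an activator of p38 signalling, differed by 2.57, with 0.75 with DSF and -1.83 with 5-FU against the control. EEF2K, the kinase of elongation factor 2, differed by 1.53 with both drugs below the control.

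Tumor-initiating and progenitor markers were 8 of 24 higher with 5-FU and 5 with DSF, with a median relative to all probes of -0.15. H19, among the 5, was not above background on all 3 arrays of either drug. EPCAM, on which the cells were sorted, read 5.03, 5.0 and 4.97 with DSF, 6.15, 5.84 and 5.23 with 5-FU and 5.47, 5.48 and 5.53 in the control, a difference of -0.74 ± 0.17 (SE, n = 3 arrays a group, adjusted p = 0.00188). PROM1, which encodes CD133, differed by -0.58, ANPEP, which encodes CD13, by -1.19, and CD47 by -1.19. PROM1 was not called with slide as a term (-0.52), nor was the glypican GPC3 (-0.61 in the main fit, -0.44 with slide). Mean GPC3 levels were 4.70 with DSF, 5.31 with 5-FU and 5.60 in the control. The study's own GPC3 result was another comparison, a fall with DSF against control cells by array and by RT-PCR.

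Aldehyde dehydrogenases, the classical targets of DSF, were 5 of 16 higher with DSF and 3 with 5-FU. ALDH1L1, among the 5, was not above background on all 3 arrays of either drug. ALDH1A1 read 6.39, 6.26 and 6.36 with DSF and 6.35, 6.37 and 6.05 with 5-FU, overlapping (adjusted p = 0.451), with the control at 6.78, 6.77 and 6.74. ALDH2 read 3.93, 3.80 and 3.80 and 3.77, 3.95 and 3.78, also overlapping (adjusted p = 0.965). Both genes lay below the control under each drug, ALDH2 by -0.58 with DSF and -0.59 with 5-FU. ALDH8A1 was lower with DSF by -3.96. GSS, a glutathione synthesis enzyme, differed by 0.16 (adjusted p = 0.0441), with the call lost in 11 of the other settings and a value of -1.0 on the spike-in scale.

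The 12 genes with the largest difference toward DSF were 9 metallothioneins, HSPA1A, HSPA6 and SPANXA1, a cancer-testis gene with near-identical copies that was at least 165-fold higher than with 5-FU. MT1M, MT1G, HSPA1A and SPANXA1 were not above background with 5-FU, so their order within the 12 was not measured. The 12 toward 5-FU were more mixed, and those given as bounds have no measured order either. KCNJ16, a potassium channel, read -5.42, -5.64 and -5.80 with DSF, 0.66, 0.48 and 0.21 with 5-FU and was not above background in the control, from which 5-FU rose at least 86.7-fold. GLYATL1, a glutamine acyltransferase, read -3.59, -3.79 and -3.79 with DSF, 0.93, 1.48 and 1.64 with 5-FU and -3.48, -3.63 and -3.66 in the control, so 5-FU alone moved it by the test. The non-coding RNAs LINC02946 and FILNC1 were at least 18.4-fold and 28.2-fold lower with DSF. The membrane protein TM4SF20 and the chemokine CXCL9 were at least 16.3-fold and 6.07-fold lower.

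Some genes were called in opposite directions against the control under the drugs. DHRS2, a mitochondrial reductase, read -0.95, -0.89 and -0.96 with DSF against a control of -5.26, -5.82 and -5.65 and was not above background with 5-FU, at least 39.5-fold apart. CCDC116 read -2.18, -1.97 and -2.0 with DSF, -6.82, -6.24 and -6.98 with 5-FU, where 1 array was above background, and -4.10, -3.94 and -4.26 in the control. ARHGEF10, a guanine nucleotide exchange factor, was at least 7.4-fold higher with DSF. C10orf105 was at least 11.1-fold higher with DSF and was not above background in either other group, so no fall with 5-FU could be measured for it. VHRT, listed under a non-coding accession, differed by 3.69, or 1.79 within the shared slide, where DSF replicate 1 read -3.97 against -1.20 and -1.05 in the others. In the reverse direction, STRA6, the receptor that takes up retinol, read -2.83, -3.38 and -3.88 with 5-FU and was at least 8.55-fold lower with DSF, with 1 of 3 control arrays above background. SAA4, G6PC1, ITIH3 and SERPINA11 were also called higher with 5-FU and lower with DSF than in the control.

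Counts in 3 further lists were as follows, beside 35.6% of all probes higher with DSF and 25% higher with 5-FU. Fatty acid oxidation had 11 of 25 higher with 5-FU and 4 with DSF. Wnt, TGF-beta and ERBB signalling had 12 of 33 each way (36.4%), near the share of all probes toward DSF. CDK inhibitors and G1 cyclins had 6 of 15 higher with 5-FU and 2 with DSF. BDH1, in the first list and called higher with 5-FU, was not above background on all 3 arrays of either drug. The same held for INHBA, in the signalling list and called higher with DSF. Whether the drugs differed by the same amount in Huh1 was tested as a difference of differences, which was called for 39.8% of probes.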

How the data were processed

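Cells sorted as EpCAM+ were measured on 18 one-colour arrays, 3 a group in 6 groups, with groups and replicate numbers taken from the sample labels. The authors deposited scanner output with the background-subtracted, detrended intensity of each spot on a linear scale, not scaled between arrays, made with Agilent Feature Extraction 10.7.1.1 per the labels. A second deposited table holds the authors' 75th percentile-normalized intensities, and was used as an alternative.

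Here spots flagged as outliers (316 to 447 an array) were left out, log2 intensities were averaged per probe, and each array's 75th percentile was subtracted. Of 42405 probes, 78 lacked an unflagged spot on an array. Tests took the 29760 probes that the scanner flagged as above background on each of the 3 arrays in 1 or more groups. No spot was saturated (0), and the Huh7 arrays had 26647 to 29870 probes above background; the number of arrays limits precision. RefSeq accessions gave 25736 of 27099 probes a symbol, for 19720 genes, and a gene's brightest probe stood for it. The array design and the reference use different builds, so only names were joined. R 4.3.3 with limma 3.58.1 fitted 6 group means with eBayes (12 residual degrees of freedom) and Benjamini-Hochberg adjustment; Python 3.11.15, pandas 2.3.3, numpy 2.4.6, scipy 1.17.1 and matplotlib 3.10.9 did the rest. The fit was tested on simulated data.

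The 38 gene lists and the genes named were chosen with earlier results of these data known. Named genes were the 12 with the largest difference each way and up to 6 opposite each way, among genes called with groups that do not overlap, the genes the study names, and up to 4 members per list and direction; some of these are not reported here. MT1A, MT3, HMOX1, GCLC, TXNRD1, TYMS, ALB, TTR and HSPH1 were added after their values were seen. Replicate numbers did not pair the arrays, since deviations of same-numbered DSF and 5-FU arrays correlated at -0.07, -0.03 and -0.07. The 21 alternatives covered scaling, background, filters, arrays in the fit, slide and replicate blocks, the call rule and each replicate left out.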

Additional observations from a re-analysis of the deposited data

Results flagged for a closer look

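The direct difference between DSF and 5-FU was compared with the same difference in Huh1 by an interaction term of the limma fit. It was called at an adjusted p under 0.05 for 104 of the 140 genes named (74.3%), against 39.8% of all probes. Most of these genes were named for their Huh7 difference, which is part of this term. The choice of genes therefore raises their share, and no conclusion about them as a set is drawn from it. It was both called and over 8-fold for 24 of the 140, a selection among many genes. Values are Huh7 minus Huh1 in log2; where a group was not above background they are fitted values and not bounds.

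Of the stress and metal genes, the HSP70 gene HSPA1A (7.71) and the small heat shock protein CRYAB (6.62) had the larger difference in Huh7, with 1.99 and 1.45 in Huh1. The zinc exporter SLC30A2 stood at 3.54. The metallothionein MT1F, at -3.39, had the larger difference in Huh1, where it was 11.74. The stromelysin MMP10 (-3.27) likewise differed by 6.63 in Huh1. CDKN1C, a CDK inhibitor, had the largest value of these genes, -9.99, since it was 9.57 higher with DSF than with 5-FU in Huh1 and read -0.42 in Huh7.

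Genes higher with DSF mainly in Huh7 were AKR1C3 (3.36, with -0.05 in Huh1), AKR1C4 (4.07, from probes that disagree), HPD (3.98), SPP1 (3.10), SPANXA1 (5.16), C10orf105 (4.85), ARHGEF10 (3.84) and VHRT (3.34). Genes lower with DSF in Huh7 by more than in Huh1 were KCNJ16 (-5.56), FILNC1 (-5.67), CXCL9 (-4.30), ITIH3 (-3.81), SAA4 (-3.76), GLYATL1 (-3.52), ALDH8A1 (-3.44) and LINC02946 (-3.03). STRA6 (-6.22) and SLC51A (-3.20) were lower with DSF in Huh7 and higher with DSF in Huh1, at 2.10 and 0.80 there.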

How the results depend on the processing

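Of 103 counts recomputed under an alternative, 96 stayed within 1.5 times the reported count. Exceptions were normexp background correction, run on spot medians because the scanner files hold no mean signal, which left 1528 and 1429 probes over 2-fold higher with DSF and with 5-FU, and spike-in scaling. Spike-in scaling gave 820 and 24071 calls toward DSF and 5-FU, 395 and 15342 over 2-fold, and 9290 for DSF against control; by construction it shifts all differences by a constant. Leaving out single replicates gave 16056 to 18248 calls. The replicate block gave 17270 calls (10101 toward DSF, 7169 toward 5-FU); 0 of 3 DSF arrays correlated best with the 5-FU array of their number. With slide as a term 13189 probes were called, and quantile normalization gave 17811.

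Of 760 list medians relative to all probes, 678 moved by less than the spread between replicates, 77 by more, and 5 reversed from a distance of at least 0.1. A further 18 sign changes of medians closer than 0.1 to all probes, in 6 lists, are counted by their size. Spike-in and median scaling, the fits of 6 and of 9 Huh7 arrays, the trend and robust fit and the replicate block cannot move these medians. Their 38 lists each are among the 678 by construction. The within-slide values repeat those with slide as a term. The p38 list turned to 0.053 and the junction and protease list to 0.057, each both with slide as a term and within the slide; the gluconeogenesis list ranged from -0.219 to 0.031 as single replicates were left out, with 0.031 without 5-FU replicate 3.

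Of 2776 values of named genes, 2668 kept their direction and call. On the spike-in scale the reversed values were MTF1 -0.43, PSMB7 -0.18, PSMA3 -0.19, VCP -0.14, GSS -1.0, GPX2 -0.40, POLA1 -0.29, BBC3 -0.02, AFP -0.55, SCD -0.92, CXCL3 -0.08, MAPK14 -0.91, GAPDH -0.53, MT3 -0.66 and HSPH1 -0.03. AFP read -0.08 under quantile normalization, and MT3 read -0.19 with slide as a term and within the slide. For list and gene reversals other than those on the spike-in scale, the cause was not tested. With 3 arrays a group, differences near the standard error, at a median of 0.13, were not resolved.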
